A study of Mus musculus with 59 samples.

Results

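Crh, Penk and Calb2 encode 2 secreted peptide precursors and 1 calcium-binding protein, and the text below follows these 3 genes through the day in the mouse medial prefrontal cortex. They were picked by symbol from a table of 4484 Ensembl genes, and all 3 passed the filter on low values that left 4273 genes for testing. All mice were adult wild-type animals of the inbred strain C57BL/6J, and the labels name no treatment or engineered allele in any group. RNA came from whole homogenates of the region, so every cell type in it contributed. Mice of both sexes were killed at 4 h intervals, and the 59 libraries fell into 12 groups of sex by zeitgeber time (ZT, hours on the light schedule of the colony). The times ran from ZT2 in steps to ZT22, that is ZT2, ZT6 and ZT10, then ZT14, ZT18 and ZT22, with 5 male and 5 female libraries each, except for 4 female libraries at ZT10. ZT14 to ZT22 are called dark and ZT2 to ZT10 light by convention, since no light schedule is stated in the labels.

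Crh encodes the precursor of corticotropin-releasing hormone, known best as the hypothalamic peptide that drives the pituitary stress axis. In the cortex it is made mainly by GABAergic interneurons and acts on neighbouring neurons through the receptor CRHR1. Penk encodes proenkephalin, which convertases cut into Met- and Leu-enkephalin, ligands of the delta and mu opioid receptors. In the forebrain Penk is most abundant in striatal projection neurons, and in the cortex it is found in subsets of interneurons and other neurons. Calb2 encodes calretinin, an EF-hand protein that buffers calcium and marks a class of cortical interneurons, many of which also make vasoactive intestinal peptide. In a homogenate, fewer cells of a type and less RNA per cell cannot be told apart.

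The deposited values are log2 of scaled reads plus 1, and whole reads could be recovered from them for every gene and library. The table held between 6317420 and 13325019 reads per library. Of these, 6 abundant noncoding genes took 61.4% to 91.2%, with a median of 77.9%. All other genes were left with between 1009789 and 4253935 reads per library. The labels number the libraries in series, with each run of 12 numbers holding 1 library of every group, and the run from 49 to 60, which lacks number 54, stood apart on the first principal component (mean score 20.9, against -7.48 to 1.43 in the 4 earlier runs). The labels do not say what these numbers mark. Some titles of a group repeat an animal number, and nothing states that libraries are from separate mice, so the p-values speak of variation among libraries, which may in part be technical. Defining genes of cortical neurons were abundant: the vesicular glutamate transporter gene Slc17a7 averaged a log2 value of 14.86 and the GABA synthesis gene Gad1 11.07. Listed markers of striatal projection neurons, the olfactory bulb and the hypothalamus, other places where these 3 genes are abundant, were not analysed here.

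Crh (ENSMUSG00000049796) lies on the minus strand of chromosome 3, at 19693401 to 19695396 in GRCm38, with 1320 exonic bases. Penk (ENSMUSG00000045573) lies on the minus strand of chromosome 4, at 4133531 to 4138819, with 1634 exonic bases. Calb2 (ENSMUSG00000003657) lies on the minus strand of chromosome 8, at 110137502 to 110168210, with 1743 exonic bases. No other annotated gene overlaps Crh or Calb2. Of Penk, 233 exonic bases overlap A830012C17Rik on the other strand. The library kit is stranded, but the strand setting of the counting is not given in the sources used here, so reads of these bases could belong to either gene.

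Crh was the scarcest of the 3 genes. It had 4 to 38 reads per library with a median of 21, against 21 to 202 with a median of 98 for Penk and 34 to 175 with a median of 91 for Calb2. Fewer than 10 reads stood behind the Crh value in 5 libraries and behind no Penk or Calb2 value. Per kilobase of exon, the median level over libraries was 49.1 scaled reads for Crh, 169 for Penk and 160 for Calb2. Of 4258 tested genes with a known length, 27.2% lay below Crh on that scale and 58.3% below Calb2, with Penk just above Calb2. The peptide genes Vip, with 215 scaled reads per kilobase, and Npy, with 365, were higher per length than all 3.

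Libraries of the same group spread more than the counting of reads alone gives. The pooled SD within groups was 0.63 on the log2 scale for Crh, 0.53 for Penk and 0.30 for Calb2. Counting alone would give an SD of 0.34 for Crh, 0.16 for Penk and 0.16 for Calb2, which is 29.7%, 9.31% and 27.2% of the variance. Crh is thus the gene with the fewest reads and the widest spread, and Calb2 has about as many reads as Penk with a narrower spread.

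**Figure D1:**
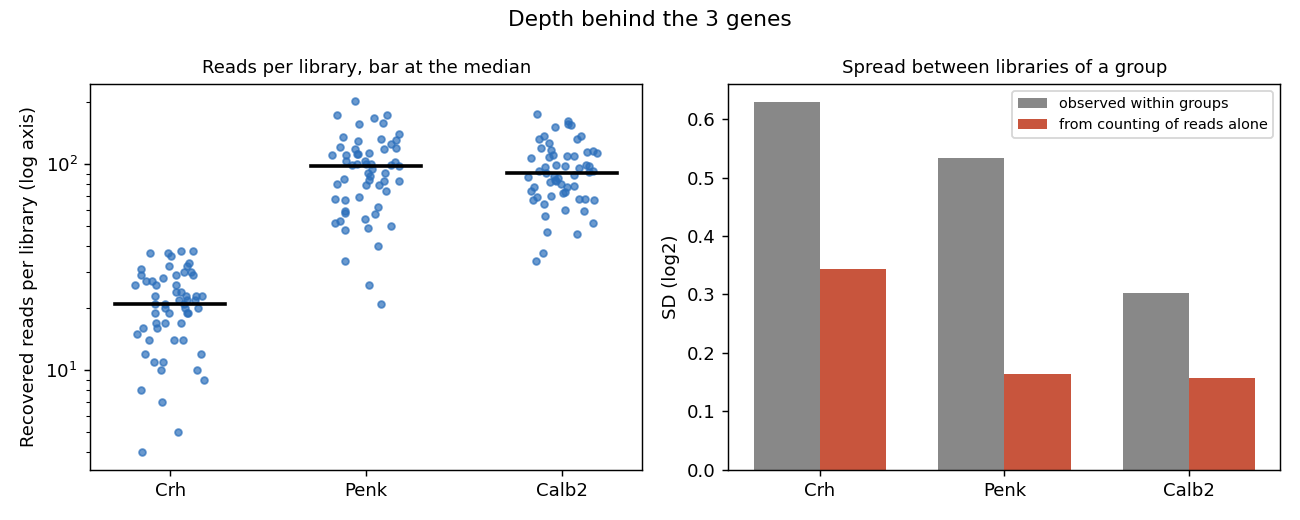
Left, reads recovered for each gene in each of the 59 libraries (points, log axis) with the median as a bar. Right, the SD on the log2 scale between libraries of a group (grey) and the SD that counting of the reads alone would give (red), for Crh, Penk and Calb2. Crh has a median of 21 reads and an SD of 0.63, and Penk and Calb2 have medians of 98 and 91 reads and SDs of 0.53 and 0.30.

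The first question was whether the levels followed a 24 h cycle, with both sexes together. By means, Crh was highest at ZT10 and lowest at ZT22 and ZT18, and Calb2 was highest at ZT2 and lowest at ZT14. By medians, Crh was lowest at ZT18, with 5.54, while ZT22, with 6.06, lay above ZT14 and ZT2. The Crh mean at ZT22 includes female libraries with 4 and 5 reads. Penk had no course that the runs of libraries shared. None of the 3 passed the test across all genes as fitted here. In limma, with a cosine and a sine term and sex as a covariate, 0 of the 3 genes had a Benjamini-Hochberg adjusted p under 0.05, while 1.9% of all tested genes did. At an unadjusted p under 0.05 there were 2 of the 3, Crh and Calb2, and 11.4% of all tested genes, and limma voom on the recovered reads likewise called 0 and had 2 under 0.05 unadjusted.

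Crh, the hormone precursor gene, had log2 values from 5.13 to 6.52 with a median of 5.91 at ZT2, and from 5.48 to 7.24 with a median of 6.22 at ZT6. At ZT10 its range was 5.68 to 6.97 (median 6.59) and at ZT14 4.94 to 6.80 (median 6.00). At ZT18 the lowest value was 4.94, the median 5.54 and the highest 6.37, and at ZT22 these were 3.73, 6.06 and 6.57. The ranges of all 6 times overlapped, and the widest spread was at ZT22, where 2 female libraries were lowest of all.

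By means, the order for Crh was ZT10 with 6.43 ± 0.49 (SD, n = 9), ZT6 with 6.24 ± 0.45 (n = 10), ZT14 with 5.96 ± 0.66, ZT2 with 5.85 ± 0.44, ZT18 with 5.58 ± 0.46 and ZT22 with 5.57 ± 1.01 (n = 10 each). No neighbours in that order differed by more than the larger of their SDs, and the 0.86 between ZT10 and ZT22 was also smaller than the SD at ZT22. Neighbours in a sorted order lie close by construction, and the SD is the spread of libraries, not the error of a mean. Such comparisons, here and below, describe overlap and do not test the times. A 24 h cosine fitted to Crh peaked at ZT8.58 and stood 0.44 ± 0.11 log2 units (SE, n = 59) above its mean there, its amplitude, which is a 1.83-fold range between trough and peak. Its unadjusted p was 0.00132 and its adjusted p 0.0639 (limma, Benjamini-Hochberg). It ranked 88 of 4273 genes by p, and the largest unadjusted p among the called genes was 0.000911. Of the 81 called genes 11 had an amplitude at least as large as that of Crh, and of all tested genes 72 did.

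Some alternatives put Crh on the other side of the threshold. With the first 2 principal components as covariates its amplitude was 0.46 and its adjusted p 0.00929 (limma, Benjamini-Hochberg), with all 59 libraries. That setting called 11.7% of all tested genes, against 1.9% in the main fit. Leaving out single libraries also moved it. The adjusted p (limma, Benjamini-Hochberg) was 0.0277 without ZT22 female replicate 1, 0.0407 without ZT22 male replicate 2, 0.0415 without ZT22 male replicate 3 and 0.0435 without ZT22 female replicate 3. It was 0.0437 without ZT6 female replicate 5 or ZT10 male replicate 3, 0.0448 without ZT18 male replicate 1, 0.0451 without ZT14 male replicate 3 and 0.0484 without ZT10 female replicate 4. Replicates are numbered here by the run of serial numbers. Leaving out any other library kept the adjusted p above 0.05, up to 0.114 without ZT22 female replicate 5, the library with the lowest Crh value. Over these 59 fits the amplitude ran from 0.38 to 0.47. Under scaling by library totals the amplitude was 0.41, the unadjusted p 0.00667 and the adjusted p 0.825 (limma, Benjamini-Hochberg). With that scaling, whose totals include the abundant noncoding genes, 0.0702% of all tested genes were called.

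Each run of 12 serial numbers covers a whole day in both sexes, except that numbers 49 to 60 lack the ZT10 female. The course of Crh can thus be read in each of the 5 runs. Animal numbers of a group repeat across runs, with 37 different ones for the 59 libraries, so the runs may share mice and are not shown to be independent. Averaged over the libraries of a time, Crh was highest at ZT10 in 3 runs, at ZT6 in 1 and at ZT14 in 1. In numbers 49 to 60 the high ZT10 value of 6.31 is the male library alone, and the ZT6 male of that run was higher, at 6.42. Crh was lowest at ZT22 in 2 runs, at ZT18 in 2 and at ZT2 in 1. The cosine fitted to each run peaked at ZT11.5, ZT8.21, ZT5.58, ZT8.54 and ZT8.24 in the order of the serial numbers, with amplitudes of 0.49, 0.31, 0.43, 0.57 and 0.53 on the log2 scale. All 5 fitted peaks of Crh fell between ZT5.58 and ZT11.5. Each such fit, here and for the other genes, rests on 12 libraries, or on 11 in numbers 49 to 60. Noise raises a fitted amplitude, so the amplitudes of single runs describe the runs and do not test a rhythm.

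The level of Crh also varied between the runs. Its mean was 6.16, 6.17 and 6.14 in the runs up to number 36, 5.64 in numbers 37 to 48 and 5.50 in numbers 49 to 60. The summed level of 15 GABAergic markers had a median of 19937 scaled reads in numbers 49 to 60 and 19056 in the earlier libraries, and that of 5 glutamatergic markers 40172 and 33829. In numbers 37 to 48 alone the medians were 19208 for the GABAergic and 33674 for the glutamatergic markers. Whether these levels have a part in the Crh values was not tested. Without numbers 49 to 60 the amplitude of Crh was 0.38 with a peak at ZT8.57 and the adjusted p was 0.257 (limma with Benjamini-Hochberg, 48 libraries), and in those 11 libraries alone it was 0.53 at ZT8.24 with an adjusted p of 0.751.

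**Figure D2:**
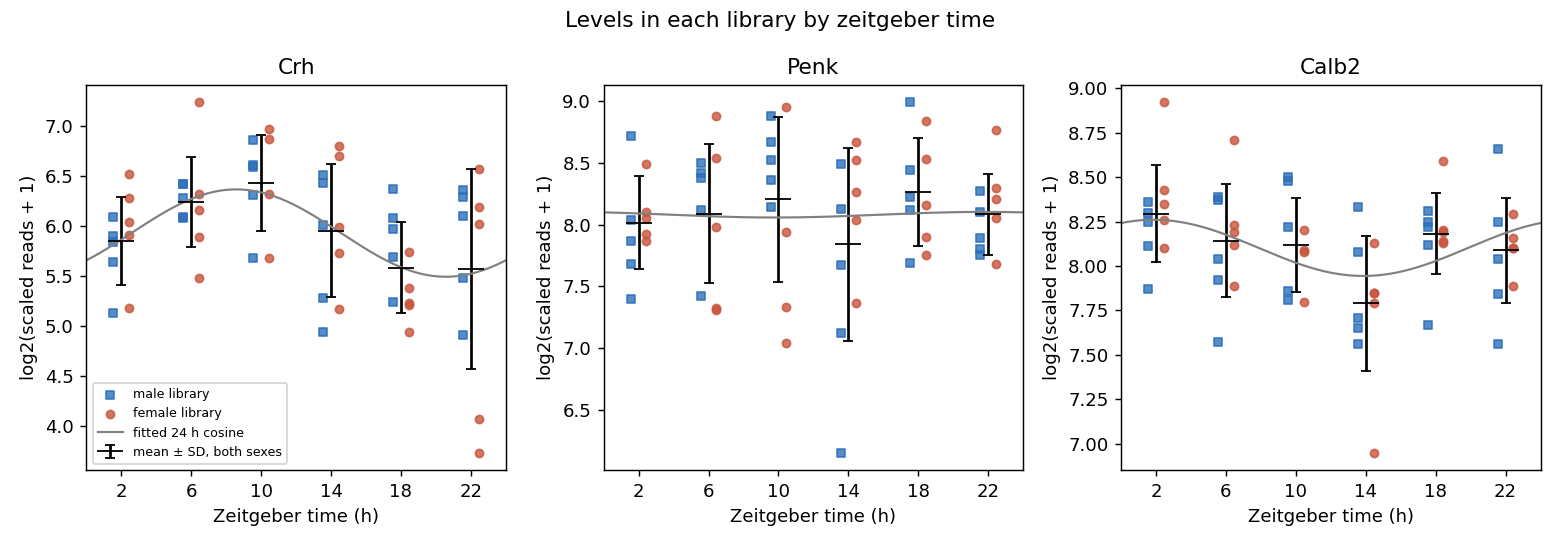
Log2 of scaled reads plus 1 (y axis) against zeitgeber time in hours (x axis) for Crh, Penk and Calb2, with male libraries as blue squares, female libraries as red circles, the mean ± SD over both sexes in black and the fitted 24 h cosine in grey. Crh means run between 5.57 at ZT22 and 6.43 at ZT10, while its median is 6.06 at ZT22 and 5.54 at ZT18. Calb2 means run between 7.79 at ZT14 and 8.29 at ZT2, and the Penk cosine is nearly flat.

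Calb2, the calretinin gene, had log2 values from 7.87 to 8.92 with a median of 8.28 at ZT2, from 7.57 to 8.71 with a median of 8.15 at ZT6, and from 7.80 to 8.50 with a median of 8.09 at ZT10. At ZT14 its range was 6.95 to 8.33 (median 7.82), at ZT18 7.67 to 8.59 (median 8.20) and at ZT22 7.56 to 8.66 (median 8.10). The ranges of all times overlapped, and ZT14 was the low one. The order by means was ZT2 with 8.29 ± 0.27, ZT18 with 8.18 ± 0.22, ZT6 with 8.14 ± 0.32, ZT10 with 8.11 ± 0.26, ZT22 with 8.09 ± 0.29 and ZT14 with 7.79 ± 0.38 (SD, n = 10, and 9 at ZT10). No neighbours in that order differed by more than the larger SD, while ZT2 and ZT14 differed by 0.50, above the SD of 0.38.

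The cosine described Calb2 with an amplitude of 0.16 ± 0.06 on the log2 scale (SE, n = 59), a 1.24-fold range, a peak at ZT1.86, with p = 0.0287 unadjusted and 0.331 adjusted (limma, Benjamini-Hochberg). Without ZT14 female replicate 3, which held the lowest Calb2 value, the amplitude of Calb2 was 0.12, its adjusted p 0.529 (limma, Benjamini-Hochberg) and its unadjusted p 0.0862. The unadjusted p was also above 0.05 without ZT2 female replicate 2 (0.0667) or ZT14 male replicate 2 (0.0532). Within the runs Calb2 was lowest at ZT14 in 3, at ZT10 in 1 and at ZT22 in 1, and highest at ZT2 in 3. The peak of the cosine came at ZT20.7 in serial numbers 1 to 12 and at ZT2.05, ZT3.29, ZT5.23 and ZT6.41 in the later runs, with amplitudes from 0.13 to 0.32.

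Penk, the enkephalin precursor gene, had log2 values from 7.40 to 8.72 at ZT2, from 7.31 to 8.88 at ZT6 and from 7.04 to 8.95 at ZT10, with medians of 7.98, 8.25 and 8.36. At ZT14 it ran from 6.15 to 8.67, at ZT18 from 7.69 to 8.99 and at ZT22 from 7.68 to 8.77, with medians of 8.09, 8.19 and 8.07. The ranges of all times overlapped, but the low ends at ZT14 (6.15) and ZT10 (7.04) lay below every value at ZT18 and ZT22. By means the order was ZT18 with 8.26 ± 0.44, ZT10 with 8.20 ± 0.67, ZT6 with 8.09 ± 0.56, ZT22 with 8.08 ± 0.33, ZT2 with 8.01 ± 0.38 and ZT14 with 7.84 ± 0.78 (SD, n = 10, and 9 at ZT10). Neither neighbours nor the highest and lowest time of Penk differed by more than the larger SD.

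The fitted amplitude of Penk was 0.02 ± 0.10 on the log2 scale (SE, n = 59), and its adjusted p 0.999 (limma, Benjamini-Hochberg). The runs did not share a course: the highest time was ZT10 in 2 runs, and ZT2, ZT6 and ZT18 in 1 run each. Of the ZT10 runs, numbers 49 to 60 had only a male library at that time, with 8.67, and the ZT2 male of that run was higher, at 8.72. The means of the runs lay wider apart than those of the times, with no test of this. The Penk mean was 8.44 ± 0.19 (SD, n = 11) in serial numbers 49 to 60, 8.38 ± 0.46 in numbers 1 to 12, 8.05 ± 0.51 in numbers 13 to 24, 7.92 ± 0.46 in numbers 25 to 36 and 7.63 ± 0.60 in numbers 37 to 48 (n = 12 each). The 11 libraries of the last run lay between 8.10 and 8.72, while the earlier 48 ran from 6.15 to 8.99.

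**Figure D3:**
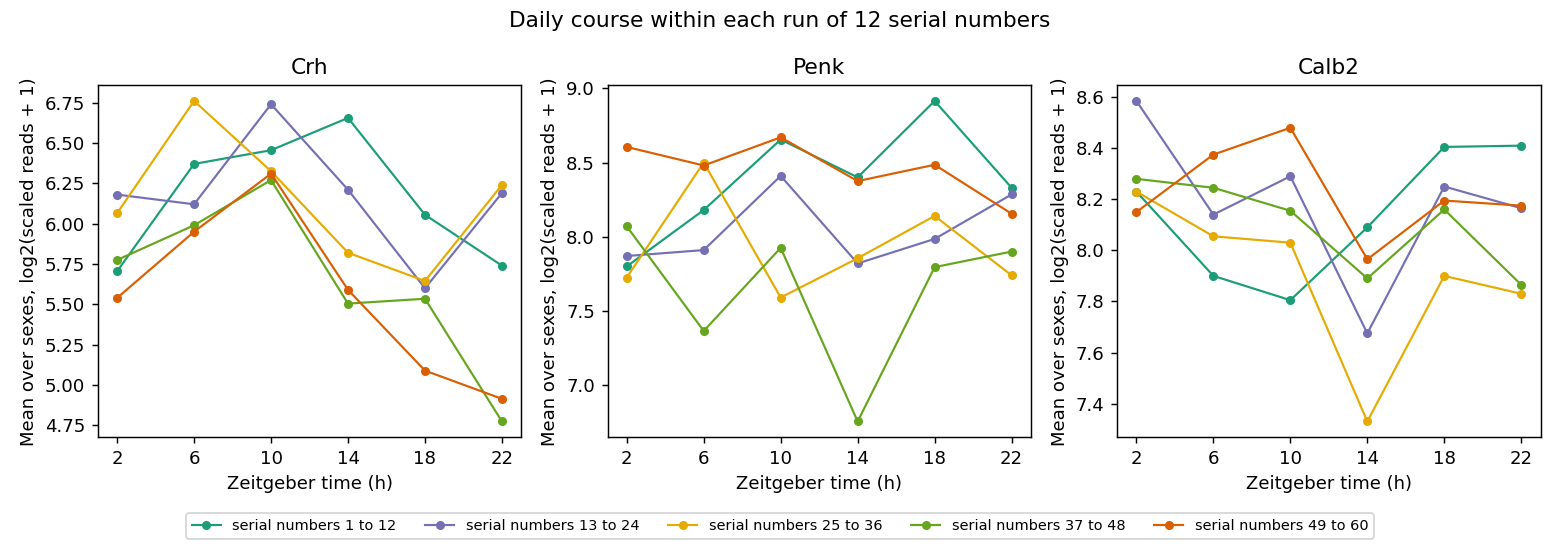
Mean over the male and the female library, log2 of scaled reads plus 1 (y axis), at each zeitgeber time in hours (x axis), with 1 line for each run of 12 serial numbers; at ZT10 in numbers 49 to 60 the point is the male library alone. The Crh lines are highest between ZT6 and ZT14 in each run, the Calb2 lines are lowest at ZT14 in 3 of the 5 runs, and the Penk lines differ in course and level.

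A second test took time as 6 separate levels, so that a course unlike a cosine could be found. Of the 3 genes 0 passed over all genes, against 1.05% of all tested genes (limma, Benjamini-Hochberg). For Calb2, with its lowest mean at ZT14, the difference between the highest and lowest fitted time was 0.50 on the log2 scale, with an unadjusted p of 0.0150 and an adjusted p of 0.320. Without ZT14 female replicate 3 this Calb2 difference was 0.41 and its adjusted p 0.582 (limma, Benjamini-Hochberg). With all libraries the difference was 0.85 for Crh, with an unadjusted p of 0.0211 and an adjusted p of 0.375. For Penk it was 0.42, with 0.580 and 0.860. Limma voom also called 0, and with either tool 2 of the 3 genes had an unadjusted p under 0.05, as did 9.76% of all tested genes with limma.

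The dark phase was then set against the light phase, as the equally weighted means of ZT14, ZT18 and ZT22 minus those of ZT2, ZT6 and ZT10. In the dark (n = 30) Crh values lay between 3.73 and 6.80 around a median of 5.86, against 5.13 and 7.24 around 6.16 in the light (n = 29). Penk medians were 8.13 in the dark and 8.10 in the light, and Calb2 medians 8.11 in the dark and 8.20 in the light. For all 3 genes the ranges of the phases overlapped over most of their width.

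The dark minus light difference was -0.47 ± 0.16 on the log2 scale for Crh (SE, n = 59, 95% interval -0.80 to -0.14), and p was 0.00579 unadjusted and 0.238 adjusted (limma, Benjamini-Hochberg). For Calb2 it was -0.16 ± 0.08, with an unadjusted p of 0.0414 and an adjusted p of 0.547. For Penk it was -0.04 ± 0.14, with a 95% interval from -0.32 to 0.24. Thus 0 of the 3 genes passed, while 0.749% of all tested genes did, and limma voom called 0 as well. An unadjusted p under 0.05 was found for 2 of the 3 with limma and 1 with voom, and for 8.42% of all tested genes with limma. Within the runs, which may share mice, the dark mean of Crh was below its light mean in all 5. The differences were 0.03, 0.35, 0.48, 0.74 and 0.66 in the order of the serial numbers. Calb2 was lower in the dark in 4 runs and higher, by 0.32, in numbers 1 to 12.

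Males and females were compared to see whether level or course depended on sex. Crh had a median of 6.09 in males (4.91 to 6.86, n = 30) and of 5.99 in females (3.73 to 7.24, n = 29). Penk medians were 8.13 in males and 8.05 in females, and Calb2 medians 8.12 in males and 8.13 in females. The sexes overlapped for all 3 genes, and the Crh values of females spread wider, with an SD of 0.81 against 0.51 in males.

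With time as a factor, the male minus female difference was 0.10 ± 0.16 for Crh (SE, 95% interval -0.23 to 0.42), -0.03 ± 0.14 for Penk (-0.31 to 0.24) and -0.05 ± 0.08 for Calb2 (-0.21 to 0.11), all on the log2 scale. The adjusted p was 0.999 for each (limma, Benjamini-Hochberg), and 0.0234% of tested genes passed this test. No gene of the 3 passed, and with limma voom 0 did, with 0 under an unadjusted p of 0.05 by either tool.

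In females the widest spread of Crh was at ZT22. The male libraries of that time had log2 values of 4.91, 6.36, 6.29, 5.48 and 6.10, and the female libraries 6.57, 6.02, 6.19, 4.07 and 3.73. The values 4.07 and 3.73 rest on 4 and 5 reads. At ZT18 males had 6.37, 5.97, 6.08, 5.69 and 5.24, against 5.74, 5.23, 5.21, 5.38 and 4.94 in females. The sexes overlapped at both times, and at ZT18 3 of the 5 male values lay above every female value. At ZT10 Crh was high in both sexes, with 6.59, 6.61, 5.68, 6.86 and 6.31 in males and 6.32, 6.87, 6.97 and 5.68 in females.

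Fitted alone, males gave Crh an amplitude of 0.29 ± 0.13 (SE, n = 30) with a peak at ZT8.93, and females 0.60 ± 0.19 (SE, n = 29) with a peak at ZT8.43, both on the log2 scale. The adjusted p was 0.774 in males and 0.407 in females (limma, Benjamini-Hochberg). Calb2 had 0.08 ± 0.08 at ZT2.65 in males and 0.24 ± 0.08 at ZT1.56 in females, with adjusted p of 0.938 and 0.490. Penk had 0.13 ± 0.14 at ZT7.08 in males and 0.17 ± 0.13 at ZT19.9 in females, with adjusted p of 0.946 and 0.786. Of the 3 genes 0 passed in males, where 0.164% of all tested genes did, and 0 in females, where 0.328% did. Unadjusted p under 0.05 was found for 0 of them in males and for 2, Crh and Calb2, in females, and limma voom gave the same counts. Of all tested genes 7.54% had one in males and 8.89% in females.

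The difference in rhythm between the sexes was tested itself, as the interaction of sex with the cosine and sine terms. It had an unadjusted p of 0.384 for Crh, 0.336 for Penk and 0.353 for Calb2, and an adjusted p of 0.770, 0.753 and 0.757 (limma, Benjamini-Hochberg). Among all tested genes 0 passed, which is 0%, with 180 under an unadjusted p of 0.05 and 0 called by limma voom. The difference between the male and the female cosine had an amplitude of 0.32 ± 0.23 for Crh, 0.30 ± 0.20 for Penk and 0.17 ± 0.12 for Calb2 on the log2 scale (SE, n = 59), and none was detected as different from 0.

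The levels of the 3 genes were next compared with each other across the 59 libraries, in 3 relations. Crh and Penk had a Pearson r of 0.17 (permutation p = 0.209, adjusted over 3 relations 0.313) and a Spearman rho of 0.20 (permutation p = 0.131, adjusted 0.307). Without the 2 libraries farthest from the median of Crh, r was 0.22, and it was 0.32 over the 48 libraries up to serial number 48 and 0.34 over the 11 of numbers 49 to 60. Penk and Calb2 had r = 0.20 (permutation p = 0.132, adjusted 0.313) and rho = 0.17 (permutation p = 0.205, adjusted 0.307), with r = 0.15 without the 2 farthest libraries, 0.16 in the 48 and 0.18 in the 11. Crh and Calb2 had r = -0.08 (permutation p = 0.534, adjusted 0.534) and rho = -0.10 (permutation p = 0.428, adjusted 0.428), with r = -0.14, -0.06 and 0.08 in the same order. No pair showed a relation beyond the permutation spread over the 59 libraries. The permutations took no account of the runs, between which the levels of Crh and Penk differed. The r values within the 48 and the 11 libraries were not tested.

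Genes with the most similar pattern were taken by Pearson r, as a description, from 59 libraries after the mean of each run was taken off. The libraries share scaling and depth, which such values also carry. For Crh they were St3gal5 (r = 0.52), Kcnj4 (0.51), an inward rectifier potassium channel gene, and Thoc3 (0.51). For Penk they were Prdm8 (0.65), Pam (0.63), which encodes the enzyme that amidates peptide hormones, and Selplg (0.62). For Calb2 they were Arhgap45 (0.43), Msc (0.40) and Cyth4 (0.36), with medians of 13, 13 and 35 reads.

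By the 12 means of time and sex, the genes most like Crh were Erlin2 (r = 0.88), Col6a4 (0.85, with a median of 9 reads) and Sdr39u1 (0.85). Those most like Penk were Limch1 (0.89), Klf5 (0.88) and Padi2 (0.84), and those most like Calb2 were Gli3 (0.83), Tpp1 (0.82) and Rnf213 (0.80). No gene was named by both of these measures for the same member. With the run means kept, 1 gene for each member was again among its 3 most alike over 59 libraries, Thoc3 for Crh (r = 0.52), Prdm8 for Penk (0.73) and Arhgap45 for Calb2 (0.41). None of the 3 members was among the 3 genes most like another. All genes named as most alike were the highest of 3919 tested genes with a proper symbol. Taking the highest of so many raises r, more so over 12 points than over 59.

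The other genes of the peptide and interneuron systems were described from lists, of which only part could be analysed. Of 7 listed genes of the CRH system and 8 of the opioid system, Crh and Penk were the members analysed, and receptors such as Crhr1 and Oprm1 were not analysed here. Of 21 peptide precursors 7 were tested and 0 passed the 24 h test (limma, Benjamini-Hochberg), with 2 under an unadjusted p of 0.05. Their median amplitude was 0.17 on the log2 scale, against 0.08 over all tested genes. A fitted amplitude cannot be negative and rises with noise, and the 7 genes had medians from 17 reads (Cort) to 226 (Vip). These medians of amplitude therefore do not show a stronger rhythm in peptide genes. The largest amplitude of the 7 was that of Crh. Of all tested genes 1.9% passed this test and 11.4% had an unadjusted p under 0.05, the shares against which the counts of this and the other lists are to be read.

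Vip, the vasoactive intestinal peptide gene, had an amplitude of 0.13 ± 0.05 on the log2 scale (SE, n = 59), a peak at ZT8.33 and 0.324 as its adjusted p (limma, Benjamini-Hochberg). Tac1, the precursor of substance P, had 0.22 ± 0.10 at ZT10.3, and Grp, which encodes gastrin-releasing peptide, 0.09 ± 0.05 at ZT9.45. Npy, the neuropeptide Y gene, had 0.17 ± 0.09 at ZT18.7 and Cort, the cortistatin gene, 0.20 ± 0.15 at ZT15.6. The adjusted p of these last 4 genes ran between 0.583 and 0.914 (limma, Benjamini-Hochberg).

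Of 26 peptide receptor genes 5 were tested, Sstr4, Npy1r, Npy5r, Adcyap1r1 and Cckbr, and 0 passed, with 0 under an unadjusted p of 0.05. Of 19 genes of precursor processing and secretory granules 5 were tested and 0 passed, with 0 under 0.05 unadjusted. Among them Cpe, the carboxypeptidase that trims peptide precursors, had an amplitude of 0.05 ± 0.03, and Pam 0.04 ± 0.04, both on the log2 scale (SE, n = 59). The median amplitude was 0.08 for the receptors and 0.05 for the processing genes. Of 22 EF-hand calcium-binding protein genes 7 were tested and 0 passed, with Calb2 as the 1 under an unadjusted p of 0.05. The calbindin gene Calb1 had an amplitude of 0.05 ± 0.04, against 0.16 ± 0.06 for Calb2.

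Of 27 markers of GABAergic neurons 15 were tested, 0 passed and 1, Vip, had an unadjusted p under 0.05. Gad1 had an amplitude of 0.02 ± 0.04, Gad2 of 0.08 ± 0.06 and the vesicular GABA transporter gene Slc32a1 of 0.00 ± 0.06 on the log2 scale (SE, n = 59). The summed level of the 15 markers had a median of 19249 scaled reads in the dark (16826 to 21514) and of 19162 in the light (17183 to 24496). The ranges of this sum overlapped between the phases. None of 5 glutamatergic, 4 astrocyte, 3 claustrum, 2 thalamic or 2 microglial markers passed the 24 h test (limma and Benjamini-Hochberg), with 0, 1, 2, 0 and 0 under an unadjusted p of 0.05, and neither did C1ql1, a marker of glial precursors, and Lum, a marker of the leptomeninges.

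**Figure D4:**
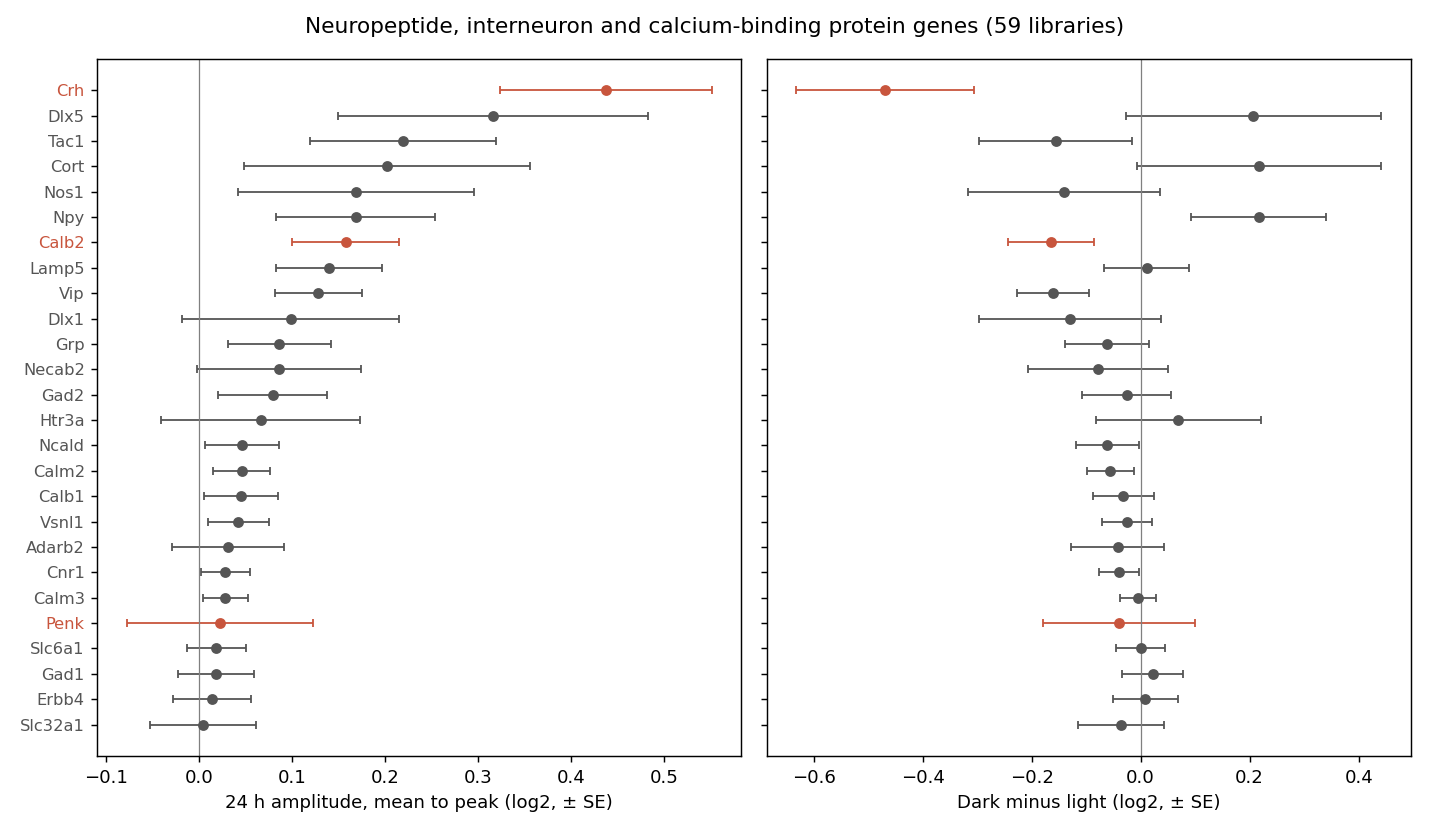
Fitted 24 h amplitude (left) and dark minus light difference (right), both on the log2 scale with SE over 59 libraries, for the tested peptide precursor, GABAergic marker and EF-hand protein genes, ordered by amplitude, with Crh, Penk and Calb2 in red. Crh has the largest amplitude, 0.44, and the lowest dark minus light value, -0.47, and Penk is among the genes nearest to 0.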

How the data were processed

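RNA sequencing libraries were made from total RNA with the Qiagen RNeasy Plus Micro kit and the Takara SMART Stranded Total RNA kit, per the labels' protocols. FastQC, HTSeq, DESeq2 and the build GRCm38 were named without versions or roles, per the submitters' processing notes; the aligner, annotation and strand setting are not given in the sources used here. The table is named for raw counts, but what the authors deposited are log2 values, of scaled reads with 1 added. Dividing 2 to the power of the value, minus 1, by 1 step per library gave whole numbers within 0.1 for 100% of values, and these reads were used for depth, filters and limma voom.

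Symbols (4465 of 4484 genes) and positions came from GENCODE release M21. Genes with at least 10 reads in at least 4 libraries, 4273 in all, were tested in R 4.3.3 (limma 3.58.1), using the log2 values as deposited, the trended and robust variance options, and Benjamini-Hochberg adjustment over all of them; figures and relations used Python 3.11.15. The code was tested on simulated data. Groups came from the titles, and replicates are numbered by the run of 12 serial numbers, with number 54 absent. Relations between genes were tested with 100000 permutations, two-sided. SDs from counting take reads as independent, and amplification without molecular identifiers can break that.

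The 3 genes, the gene lists and the rules were chosen with earlier results of these data known. Named genes were the 3 members, the 3 genes most like each by either measure, and list members that passed or that describe a list, the last chosen after their values were seen. Promoter motifs were not analysed here. Alternatives changed the scaling, the filter, the variance model, the covariates and the libraries used.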

Additional observations from a re-analysis of the deposited data

Results flagged for a closer look

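In each of the 36 groups of 4 or 5 libraries (3 genes, 12 groups) the gap between the most extreme library and its neighbour was set against the range of the group with Dixon's 95% limit, which chance passes in about 1 of 20 groups. A library stood outside in 2 groups, both for Calb2. In ZT14 females, replicate 3 (serial number 32) had a log2 value of 6.95 from 37 reads, while the other 4 libraries ran from 7.79 to 8.13. In ZT18 females, replicate 1 (serial number 10) had 8.59, while the others ran from 8.13 to 8.20. No Crh or Penk library was flagged, the low Crh values of ZT22 females included, where 2 of the 5 libraries were low together.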

How the results depend on the processing

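Of the values of the 3 genes, 203 of 209 kept direction and side of the threshold under the alternatives that changed settings or dropped serial numbers 49 to 60, and 1047 of 1062 when single libraries were left out. For cosine fits, a turned direction means a peak nearer to the opposite time of day than to its main time. Time as a factor has no direction that could turn. No main value passed the threshold and most lay far from it, so these counts say little about stability. The Crh rhythm passed with the replicate block of 12 serial numbers (amplitude 0.42, adjusted p 0.0349) and with the first 2 principal components as covariates (0.46, 0.00929), both by limma and Benjamini-Hochberg, and the cause was not tested. With libraries of the same animal number averaged to 37 samples it was 0.40 (adjusted p 0.149). The block changed no other call of the 3 genes. Replicate numbers are not shown to pair libraries: same-numbered libraries correlated with a mean r of 0.11 (-0.49 to 0.60, 319 pairs), against -0.03 over 1276 pairs of other numbers, 148 of the 319 lay over 0.1, and 26 of 59 libraries correlated best with their own number, a hint of shared run structure in the data that the labels do not state.

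Penk, whose estimates lay near 0, turned direction in its rhythm with the components (0.048) and in serial numbers 49 to 60 alone (0.13, an alternative chosen after seeing the data), and in male minus female by voom (0.0044). Male minus female for Crh turned to -0.092 without numbers 49 to 60. Leaving out 1 library gave rhythm amplitudes of 0.38 to 0.47 for Crh and of 0.0015 to 0.061 for Penk, with the Penk peak turned at both ends of that range (without ZT22 female replicate 1 or ZT14 male replicate 4) and without ZT10 female replicate 3 (0.017) or 4 (0.0062). For Penk it gave -0.085 to 0.030 for male minus female and -0.091 to 0.025 for dark minus light, both upper values without ZT14 male replicate 4.

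The share of all tested genes called moved more. Scaling by library totals gave 0.0702% by rhythm in place of 1.9%, 0.0468% by time in place of 1.05%, 0.0234% in males in place of 0.164%, 0.0234% in females in place of 0.328%, 0% for male minus female in place of 0.0234%, and 0.117% for dark minus light in place of 0.749%. The components gave 11.7%, 6.79%, 2.46%, 2.83%, 0.0702% and 4.91% in that order. Without numbers 49 to 60 there were 1.17%, 0.608%, 0.0936% and 0.117% in the first 4 and 0.328% for dark minus light, and in those libraries alone 0% by rhythm and 0.0234% for dark minus light. The block gave 2.13% by time, 0.351% in males and 0.0468% for male minus female. Averaging animal numbers gave 0.585% by time, 0.0234% in males, 0.164% in females and 0.468% for dark minus light. In males voom and TMM factors gave 0.257% each and the strict filter of 50 reads in 30 libraries 0.356%. Leaving out 1 library gave 0.0936% to 0.257% in males and 0.211% to 0.398% in females. The strict filter gives no Crh value, and the planned quasi-likelihood count model was not run. Counting of reads accounts for 29.7% of the variance of Crh within groups.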
